A study of Mus musculus with 3 samples.

Results

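A set of 10 RNA-binding regulators of neural development was followed through mouse medulloblastoma cells: Elavl2, Elavl3, Elavl4, Celf1, Celf4, Rbfox2, Rbfox3, Msi1, Ptbp1 and Ptbp2, 10 of the 19744 genes in the deposited count tables. They were taken by name, with earlier results of these data known, and all 10 were present in all 3 tables. The tables come from 3 tumours of hGFAP-Cre/SmoM2 (G-Smo) mice on a C57BL/6 background, in which a Cre active in neural progenitors switches on a mutant, constantly active Smoothened and so the Hedgehog pathway. Every mouse had received palbociclib, an inhibitor of the cyclin-dependent kinases CDK4 and CDK6, in a polyoxazoline carrier (POx-palbo), as 5 daily intraperitoneal doses of 25 mg/kg from postnatal day 10, and tumours were taken at day 16. Untreated controls are not analysed here, so no value below is an effect of the drug. Papain-dissociated cells were run through Drop-seq, a droplet method that tags the 3' ends of polyadenylated RNA with a barcode for each bead.

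These genes act after transcription. The ELAVL (Hu) proteins bind U-rich and AU-rich stretches in mRNA and promote its stability, splicing and translation; Elavl3 (HuC) and Elavl4 (HuD) are largely neuronal, and Elavl2 (HuB) is also made in germ cells. CELF proteins bind GU-rich RNA, with Celf1 made in many tissues and Celf4 mostly in neurons. RBFOX proteins read GCAUG elements near alternative exons; Rbfox2 is widely made and Rbfox3 is the NeuN antigen used to mark postmitotic neurons, granule neurons among them. Msi1 (Musashi) is a translational regulator of neural progenitors. Ptbp1 represses neuronal exons in progenitors and non-neuronal cells, including one of its paralog Ptbp2, and Ptbp2 takes its place early in neuronal differentiation. In the cerebellum, granule neuron progenitors stop dividing, switch on the transcription factor Neurod1 and become granule neurons, and Hedgehog-driven tumours arise from these progenitors.

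In the main test described below, Elavl3 and Elavl4 were both higher in barcodes with a Neurod1 count. For Elavl4 this passed in only 5 of 17 alternative analyses. Their promoters are shown here because factors of the Neurod1 family bind E-boxes. Whether Neurod1 acts on either gene was not tested. RefSeq on GRCm38.p6 gives 1 start site for Elavl3 and 4 for Elavl4. The windows run from 250 bases before to 50 bases after a start site, 5′ to 3′ on the gene's own strand. Capitals mark the E-boxes CAGATG and CAGCTG, searched on both strands. The second motif was added after the first had been counted.
Elavl3, chr9:22051974-22052273, minus strand: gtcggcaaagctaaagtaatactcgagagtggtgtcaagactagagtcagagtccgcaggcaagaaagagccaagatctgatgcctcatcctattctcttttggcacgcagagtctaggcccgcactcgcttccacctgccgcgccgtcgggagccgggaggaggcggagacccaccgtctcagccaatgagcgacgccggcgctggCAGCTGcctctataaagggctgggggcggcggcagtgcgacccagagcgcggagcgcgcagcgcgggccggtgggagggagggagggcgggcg
Elavl4 start 1, chr4:110351862-110352161, minus strand: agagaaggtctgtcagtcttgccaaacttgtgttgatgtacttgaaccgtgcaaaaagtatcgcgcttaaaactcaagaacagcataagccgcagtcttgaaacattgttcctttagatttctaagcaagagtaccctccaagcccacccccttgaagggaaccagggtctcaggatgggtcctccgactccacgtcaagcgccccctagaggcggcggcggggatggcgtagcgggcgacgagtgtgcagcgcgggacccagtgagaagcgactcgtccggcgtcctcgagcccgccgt
Elavl4 start 2, chr4:110287478-110287777, minus strand: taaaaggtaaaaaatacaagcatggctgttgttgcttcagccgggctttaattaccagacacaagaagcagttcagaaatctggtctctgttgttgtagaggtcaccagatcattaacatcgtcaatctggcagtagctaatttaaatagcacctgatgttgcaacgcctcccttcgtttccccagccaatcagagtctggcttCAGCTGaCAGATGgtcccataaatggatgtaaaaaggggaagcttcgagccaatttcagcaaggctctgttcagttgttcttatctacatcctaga
In Elavl3 a CAGCTG began 43 bases before the start site. At the second Elavl4 start a CAGCTG and a CAGATG began 46 and 39 bases before it, 1 base apart and not overlapping. The first Elavl4 start held neither. The third, whose window overlaps that of the second, held both at 62 and 55 bases before it, and the fourth held a CAGATG at 101 bases. Of all 32817 promoters of this length, 17.2% held CAGATG, 16.3% held CAGCTG and 30.6% held either, so such matches are common. These shares are for single windows, and Elavl4 had 4. Counts at 3' ends do not show which Elavl4 start was used. Among the other members, RefSeq entries were at hand for Elavl2, Celf1, Rbfox3, Ptbp1 and Ptbp2, and not for Celf4, Rbfox2 and Msi1. The windows of Celf1, Rbfox3 and Ptbp2 held neither letter string, the Ptbp1 window held both, and 3 of 6 Elavl2 windows held CAGCTG.

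The tables held 8827, 2330 and 9802 barcodes for tumours 1, 2 and 3, with 1150463, 248617 and 1324350 counts. Most barcodes were shallow, with medians of 84, 85 and 105 counts. Splits by Neurod1 and by proliferation mRNA used the 1060, 148 and 1059 barcodes with at least 200 counts, 2267 in all. Tumour 2 therefore stood apart in depth, and each split is also given without it. Pairs of tables shared 3 to 8 barcode sequences. Counts over genes differed between every pair of tumours by more than sampling noise, with a chi-square of 5.35 to 8.06 per degree of freedom. The genes that define the tumour cell lineage were present in every tumour: Zic1 had 1027, 1162 and 979 CPM (counts scaled to 1000000 per library), and Atoh1, the progenitor factor, 145, 189 and 166 CPM.

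Summed over all barcodes, each of the 10 genes was counted in each tumour. These totals cannot tell fewer cells with a transcript from less transcript per cell, and CPM are not scaled for transcript length, so levels are not ranked between genes here. Elavl3 had 578, 712 and 579 CPM in tumours 1, 2 and 3. Elavl2 had 149.5, 237 and 136 CPM and Elavl4 had 187, 153 and 219 CPM. The 3 ELAVL genes thus lay within 1.75-fold between tumours. Rbfox3 had 458, 362 and 456 CPM, and Rbfox2 had 234, 386 and 219 CPM. Over all barcodes Celf1 was the steadiest member at 221, 221 and 190 CPM, or 211 ± 17.7 CPM (SD, n = 3). This did not hold in barcodes of at least 200 counts, where Celf1 had 247, 64.8 and 216 CPM, or 176 ± 97.3 CPM (SD, n = 3).

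Celf4 differed most between tumours among the members counted at least 200 times: 286 CPM in tumour 1, 784 CPM in tumour 2 and 372 CPM in tumour 3. The exact Poisson 95% interval of tumour 2, 678 to 903 CPM, overlapped neither of the others, which ended at 319 and 406 CPM. That excess was in shallow barcodes. In tumour 2, Celf4 had 856 CPM in barcodes of 50 to 99 counts and 457 CPM in those of 200 to under 500 counts. In tumours 1 and 3 the corresponding levels were 264 and 339 CPM, and 372 and 415 CPM. Over barcodes of at least 200 counts Celf4 came to 342 ± 63.2 CPM (SD, n = 3), against 481 ± 266 CPM over all barcodes.

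The progenitor-associated and splicing-repressor genes were sparse. Msi1 had 152, 113 and 92.1 CPM, Ptbp1 had 93.9, 28.2 and 55.9 CPM, and Ptbp2 had 103, 68.4 and 90.6 CPM. The Ptbp1 ratio of 3.33 between the highest and lowest tumour rests on 7 counts in tumour 2. Ptbp1 counts are also uncertain in origin: E130317F20Rik, with 32 counts, and Gm17134, with 25 counts, overlap it on the opposite strand, and whether counting used strand is not given in the sources used here. The overlapping transcripts counted at Rbfox2 and Elavl2, 1700109K24Rik and Gm12653, had 4 and 2 counts.

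**Figure D1:**
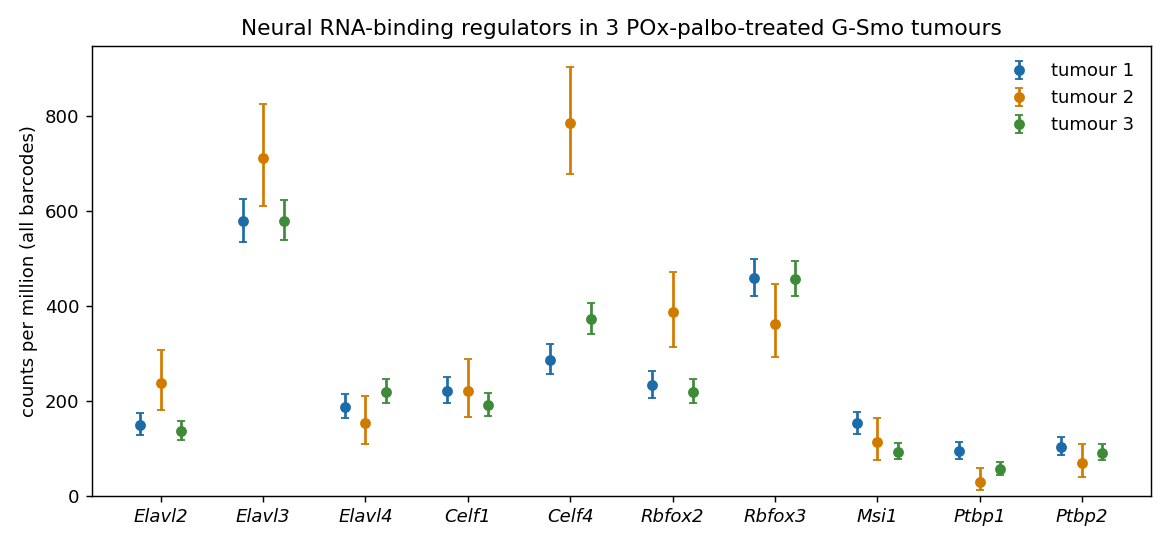
Level of each gene in CPM over all barcodes (vertical axis) in tumours 1, 2 and 3 (colours), with exact Poisson 95% intervals that cover counting error only. Celf4 in tumour 2, at 784 CPM, stands above tumours 1 and 3, at 286 and 372 CPM.

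Barcodes with a Neurod1 count numbered 330, 51 and 407 in tumours 1, 2 and 3, against 730, 97 and 652 without one. Neurod1 averaged 1672 CPM in barcodes of at least 200 counts, so many barcodes of this depth can miss it by sampling. Not detected, here and for Mki67 and Top2a below, therefore does not mean absent from the cell. Counts were summed over each set in each tumour, and edgeR's quasi-likelihood test compared the sets with the tumour as a block. All 10 genes reached the minimum of 15 counts over the 6 sums and were tested among 8327 genes. Celf4, Elavl3 and Elavl4 were higher where Neurod1 was detected (Benjamini-Hochberg adjusted p under 0.05), 3 of 10 members, and none was lower. Of all tested genes, 0.456% were higher and 0.144% lower. Among the 1901 tested genes with at least 100 counts, a depth that 9 of the 10 members reach, 1.74% were higher and 0.631% lower. The median log2 difference was 0.26 over the members and -0.03 over all tested genes. The members and the gene lists used below were chosen with earlier results of these data known. In both splits the shares over all genes are therefore background and not a test of a set.

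Celf4, the neuronal CELF gene, showed the widest difference of the 10. It had 542, 573.5 and 560 CPM in the Neurod1-detected sets of tumours 1, 2 and 3, against 163, 297 and 178 CPM in the sets without Neurod1. Every detected set lay above every set without it. The fitted log2 difference was 1.59 ± 0.24 (SE), a 3.01-fold difference with a 95% interval of 2.17 to 4.18, and it was positive in 3 of 3 tumours (edgeR adjusted p = 2.16e-07). The ratios within tumours were 3.33, 1.93 and 3.15, and in tumour 2 the 11 against 8 counts left an interval of 0.708 to 5.53.

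Elavl3 had 1118, 834 and 672 CPM in Neurod1-detected sets and 405, 223 and 453.5 CPM in sets without Neurod1. Again the 2 kinds of set did not overlap. Its log2 difference was 1.08 ± 0.20 (SE), or 2.12-fold with a 95% interval of 1.61 to 2.79 (edgeR adjusted p = 0.000101). The ratio was 2.76 in tumour 1, 3.75 in tumour 2 and 1.48 in tumour 3.

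Elavl4 had 271, 261 and 299 CPM with Neurod1 detected, and 124.5, 0 and 157 CPM without. The zero in tumour 2 is 0 counts among 26941, which allows up to 111 CPM, against 5 counts in its Neurod1-detected set. The fitted log2 difference was 1.11 ± 0.30 (SE), positive in 3 of 3 tumours (edgeR adjusted p = 0.0380). It was the weakest of the 3 calls.

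Rbfox2 had 463, 313 and 324 CPM with Neurod1 and 188, 297 and 208 CPM without. Its log2 difference of 0.89 ± 0.25 (SE) was positive in 3 of 3 tumours and did not pass over all genes (edgeR adjusted p = 0.0722). It passed in 4 of 17 alternatives: relative log expression factors (adjusted p = 0.0486), total counts (0.0332), edgeR's own filter (0.0114) and tumour 2 left out (0.000911). Rbfox3 had 516, 261 and 504 CPM with Neurod1 and 434, 297 and 483 CPM without. The 95% interval of its log2 difference ran from -0.31 to 0.54, or 0.808-fold to 1.45-fold. The difference between Rbfox3 and the genes that passed was not tested.

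The other 5 genes did not pass. Elavl2 had a log2 difference of 0.40 with a 95% interval of -0.29 to 1.09, and Celf1 one of -0.03 with an interval of -0.59 to 0.53. Msi1 stood at -0.20, Ptbp1 at -0.64 and Ptbp2 at -0.19 on the log2 scale, with every interval spanning 0. For Ptbp1 it ran from -1.67 to 0.39, wide because its 66 counts are so few.

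**Figure D2:**
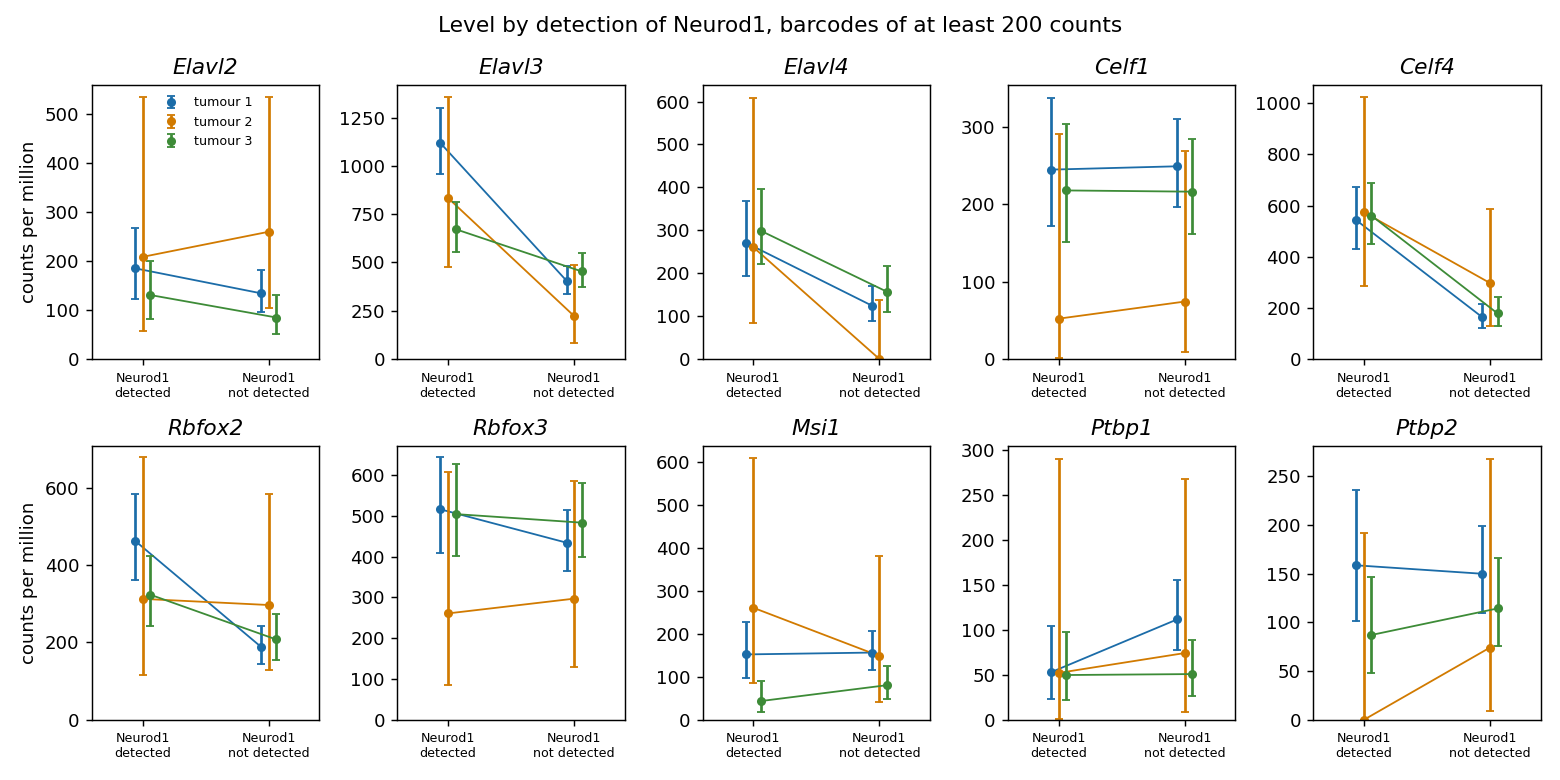
Level of each gene in CPM (vertical axis) in barcodes of at least 200 counts with Neurod1 detected (left) and not detected (right), 1 point per tumour and set joined within a tumour, with exact Poisson 95% intervals covering counting error only. Celf4 lies at 542 to 573.5 CPM on the left and 163 to 297 CPM on the right, while the Rbfox3 points overlap.

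The Neurod1 sets differed in more than these genes. Of 10 granule neuron genes, 7 were higher with Neurod1 and 0 lower, led by Cntn2 (log2 1.54), a cell adhesion molecule of young granule neurons, Meg3 (1.95), a neuronal noncoding RNA, and Stmn2 (1.08), a microtubule regulator of growing axons. Of 10 replication and mitosis genes, Mcm6, a subunit of the replicative helicase, was lower (-1.25). None of 10 progenitor genes passed. Median depth was 372.5, 253 and 316 counts with Neurod1 and 345, 256 and 294 counts without. The mitochondrial share was 4.94%, 7.75% and 5.37% with Neurod1 and 5.98%, 13.4% and 6.93% without. Their part in the members' differences was not tested beyond the restricted and thinned counts below.

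Markers of other cells moved with the split in places. Summed levels of 10 myeloid markers were 549, 3806 and 479 CPM with Neurod1 and 820, 1188 and 1166 CPM without, and at most 2 of the 10 were at 0 in any set. The oligodendrocyte list had 780.5, 2867 and 330 CPM with Neurod1 and 626, 260 and 517 CPM without. In tumour 2 that was 55 counts with Neurod1 and 7 without, with 3 and 7 of the 10 genes at 0. Vascular markers had 3, 25 and 26 counts with Neurod1 and 94, 9 and 43 counts without. The astrocyte list had 1534, 573.5 and 915 CPM with Neurod1 and 1925, 928 and 1030 CPM without, and 6 of its 10 genes were at 0 in each set of tumour 2. In tumour 1 the neutrophil list had 39 counts with Neurod1 and 2 without, and its S100a8 passed the test (log2 5.05, edgeR adjusted p = 0.00297). That call rests on tumour 1 only: tumours 2 and 3 had 0 counts of the list, and tumour 1 had 1 barcode called a neutrophil. Without the 126 barcodes called another cell type, Celf4 (log2 1.62) and Elavl3 (1.03) still passed with adjusted p of 6.01e-08 and 9.43e-05, and Elavl4 (1.02) did not, at an adjusted p of 0.0888.

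The calls depended on the test and on tumours 1 and 3. Without tumour 1 or without tumour 3, no member passed: Celf4 stood at log2 1.36 and 1.44 and Elavl3 at 0.88 and 1.54, all with adjusted p above 0.9, while without tumour 2 the 3 calls held and Rbfox2 passed as well (0.99). With barcodes of at least 100 counts, Celf4 stood at log2 0.74 (adjusted p = 0.0441), and Elavl3 (0.65) and Elavl4 (0.87) did not pass. DESeq2 and limma-voom called none of the 10, with Celf4 at log2 1.51 and 1.58 and limma-voom's adjusted p at 0.0974, and without the tumour block edgeR also called none (Celf4 adjusted p = 0.236).

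Barcodes with a count for Mki67 or Top2a, genes of dividing cells, numbered 343, 58 and 377, against 717, 90 and 682 with neither. Celf4 was lower where a proliferation gene was detected, the 1 of 10 members that passed, and none was higher. Of all 8327 tested genes, 0.432% were lower and 1.26% higher; among those with at least 100 counts 1.53% were lower and 3.47% higher. The members' median log2 difference was -0.30 and that of all tested genes -0.00. Both splits divide the same barcodes, so they are not independent, and each is given by its own values.

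Celf4 had 151, 310 and 188 CPM with Mki67 or Top2a in tumours 1, 2 and 3, against 372, 510 and 441.5 CPM with neither. All 3 sets with proliferation mRNA lay below all 3 without. The log2 difference was -1.18 ± 0.26 (SE), a ratio of 0.442 with a 95% interval of 0.312 to 0.626, negative in 3 of 3 tumours (edgeR adjusted p = 0.000689).

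Rbfox3 had 391, 266 and 282 CPM with proliferation mRNA and 505, 297 and 649 CPM without. Its log2 difference of -0.70 ± 0.21 (SE) was negative in 3 of 3 tumours and fell short of the threshold (edgeR adjusted p = 0.0591). Elavl3 had 452, 399 and 435 CPM with proliferation mRNA and 754, 552 and 622 CPM without, sets that did not overlap, at a log2 difference of -0.59 ± 0.19 (SE) that also fell short (edgeR adjusted p = 0.0940). Rbfox2 stood at -0.62 and Elavl4 at -0.73 on the log2 scale, with edgeR adjusted p of 0.394 and 0.470. Rbfox2 was lower in 3 of 3 tumours. Elavl4 had ratios of 0.367, 4.17 and 0.726 in tumours 1, 2 and 3, with 4 against 1 counts in tumour 2. Without tumour 1 its log2 difference was -0.07.

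The remaining genes lay on both sides of 0. Msi1 stood at a log2 difference of 0.38 (95% interval -0.41 to 1.16), Ptbp1 at 0.48 (-0.51 to 1.48), Ptbp2 at 0.10 (-0.68 to 0.87), Elavl2 at 0.14 (-0.58 to 0.86) and Celf1 at -0.01 (-0.57 to 0.55). These intervals leave room for a level up to 2.24-fold higher for Msi1 and 2.79-fold higher for Ptbp1 in barcodes with proliferation mRNA.

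**Figure D3:**
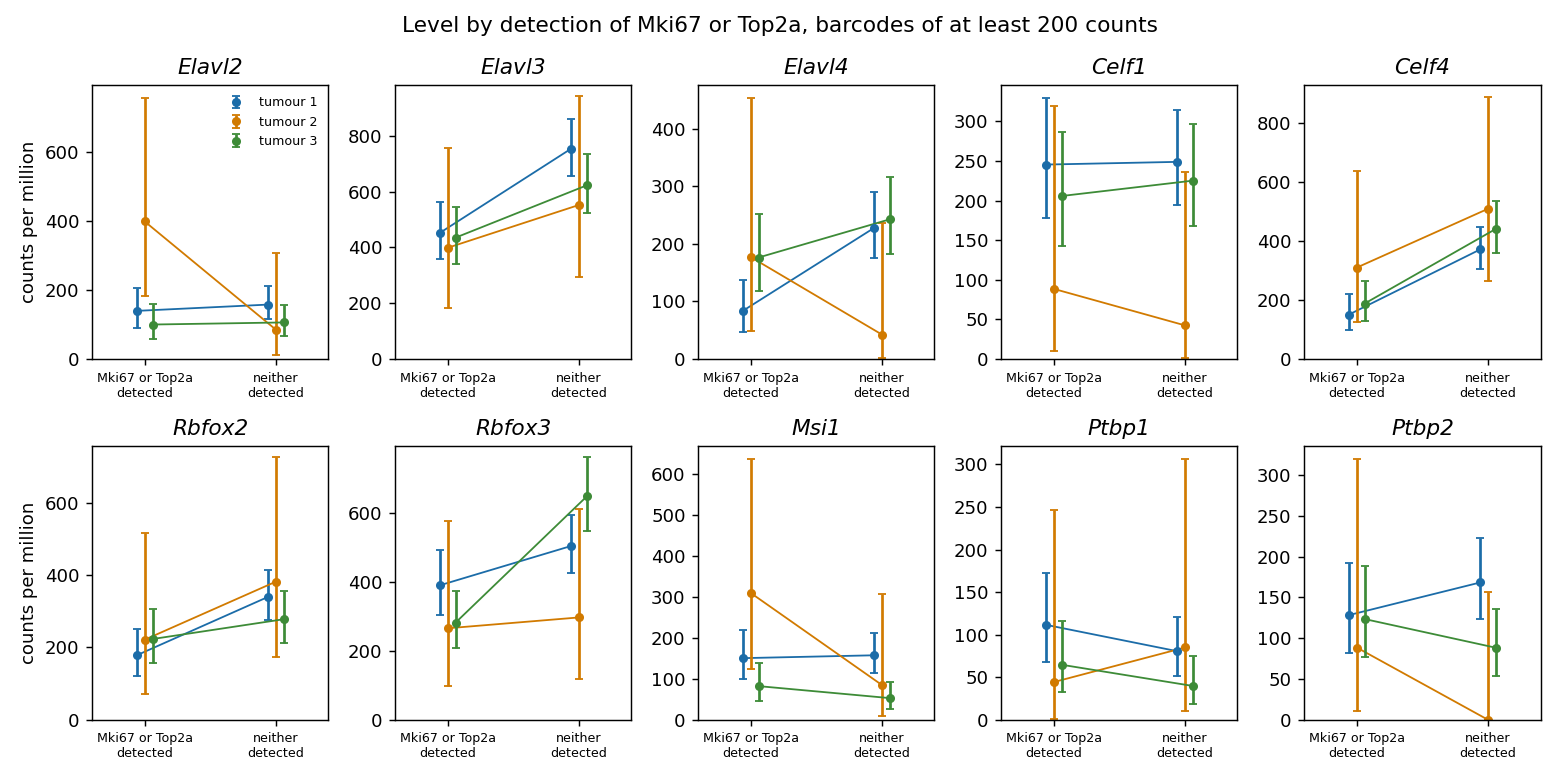
Level of each gene in CPM (vertical axis) in barcodes of at least 200 counts with Mki67 or Top2a detected (left) and with neither (right), 1 point per tumour and set joined within a tumour, with exact Poisson 95% intervals covering counting error only. Celf4 and Elavl3 lie lower on the left in all 3 tumours.

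In the same split 9 of 10 replication and mitosis genes were higher, led by Cenpf (log2 2.16), Prc1 (2.44) and Cenpe (2.11), which act at kinetochores and the mitotic spindle. Of the 10 granule neuron genes, 6 were lower, led by Cntn2 (-1.55), Map2 (-0.94), a dendritic microtubule protein, and Rtn1 (-0.79), a neuronal reticulon. None of the progenitor genes passed. Detecting a gene needs depth, and barcodes with proliferation mRNA were deeper: medians of 447, 274.5 and 359 counts, against 318, 246.5 and 284 counts with neither.

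Markers of other cells differed here too. The oligodendrocyte list had 346, 221.5 and 382 CPM with proliferation mRNA and 883, 2421 and 486 CPM without. In tumour 2 that was 5 counts with it and 57 without, with 7 and 3 of the 10 genes at 0. The myeloid list had 586, 3411 and 688 CPM with proliferation mRNA and 824, 1189 and 1038 CPM without. The astrocyte list had 1367, 930 and 970 CPM with it and 2068, 637 and 993 CPM without, and 6 of its 10 genes were at 0 in each set of tumour 2. Neutrophil counts in tumour 1 were 0 with proliferation mRNA and 41 without, and S100a8 was lower with it (edgeR adjusted p = 0.0320). Tumours 2 and 3 had 0 counts of that list, so this call too rests on tumour 1 only. Besides S100a8, no marker on the myeloid, astrocyte, vascular, erythroid, neutrophil or Purkinje cell lists passed in either split, and no interneuron marker had enough counts to be tested. With the barcodes of another type left out, Celf4 stayed lower (log2 -1.21, adjusted p = 0.000382) and Elavl3 passed as well (-0.61, adjusted p = 0.0490).

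Celf4 did not pass without tumour 1 (log2 -1.07) or without tumour 3 (-1.10), in DESeq2 (-1.15, adjusted p = 0.231), in limma-voom (-1.16, adjusted p = 0.0508) or without the tumour block (-1.14, adjusted p = 0.387). Without tumour 2, Celf4, Rbfox3 and Elavl3 all passed, at log2 -1.25, -0.74 and -0.62.

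**Figure D4:**
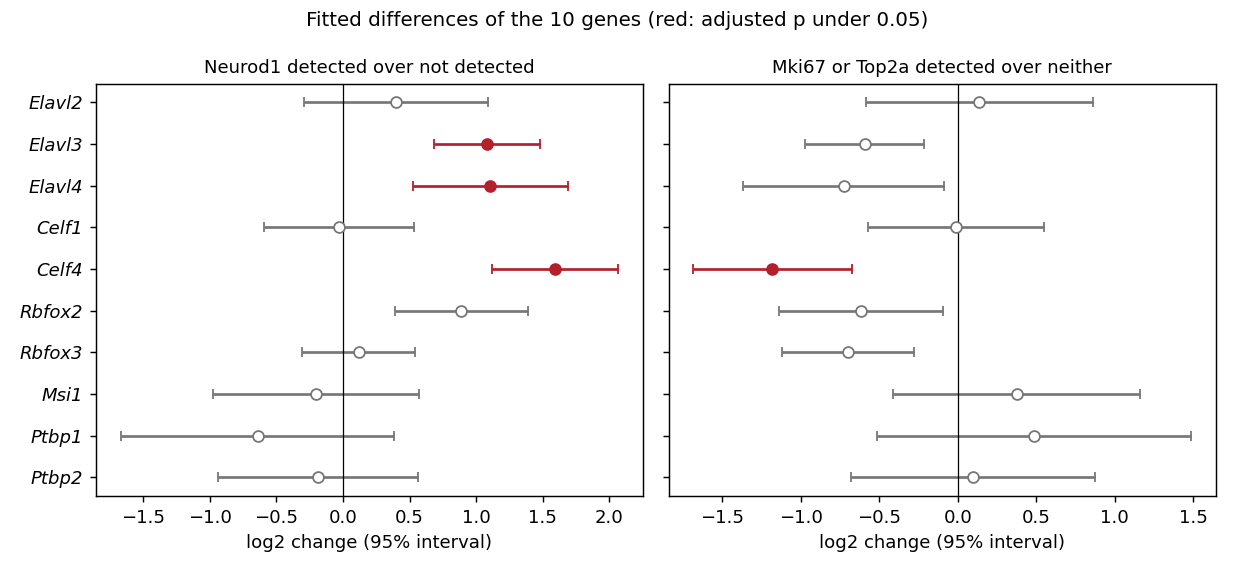
Fitted log2 differences (horizontal axis) with 95% intervals for the 10 genes, Neurod1 detected over not detected (left panel) and Mki67 or Top2a detected over neither (right panel), red and filled where the adjusted p was under 0.05. Celf4 is red in both panels, at 1.59 and -1.18, and Rbfox3 lies near 0 on the left and at -0.70 on the right.

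Crossing the splits gave 4 sets in each tumour. Alone and neither refer here to the counts detected, and cells with undetected mRNA can be in any set. Celf4 pooled over tumours had 346 CPM with Neurod1 and proliferation mRNA (95% Poisson interval 248 to 470), 668 CPM with Neurod1 alone (563 to 787), 98.6 CPM with proliferation mRNA alone (63.8 to 146) and 236 CPM with neither (186 to 295). In order from high to low these were Neurod1 alone, both, neither, and proliferation alone. Both and neither were neighbours whose intervals overlapped. Within each tumour Neurod1 alone ranked first and proliferation alone last, at 604 and 60.5 CPM in tumour 1, 789 and 245 CPM in tumour 2, and 724 and 129 CPM in tumour 3.

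Elavl3 followed the same order, with 718 CPM in barcodes with both, 979 CPM with Neurod1 alone, 312 CPM with proliferation mRNA alone and 498.9 CPM with neither. Rbfox2 was at 236, 470, 185 and 214 CPM in those 4 sets, so that Neurod1 alone stood apart and the other 3 had overlapping intervals. Rbfox3 ordered differently: 321 CPM with both, 593 CPM with Neurod1 alone, 339 CPM with proliferation mRNA alone and 533 CPM with neither. Its levels with and without Neurod1 overlapped inside each proliferation class. Msi1 had 160, 75.3, 114 and 133 CPM and did not order beyond its counting error.

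Whether a Neurod1 difference depended on proliferation mRNA was tested as an interaction over the 12 sums. None of the 10 genes passed, with an edgeR adjusted p of 0.999 for each and none at an unadjusted p under 0.05, which 3.53% of all genes reached. Of all 8327 genes, 0.012% passed: 1 gene, Ctsd, which was named after its value was seen. For Celf4 the 95% interval ran from -0.81 to 1.20 log2 units, so the Neurod1 ratio with proliferation mRNA could have been 0.570 to 2.30 times the ratio without it.

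**Figure D5:**
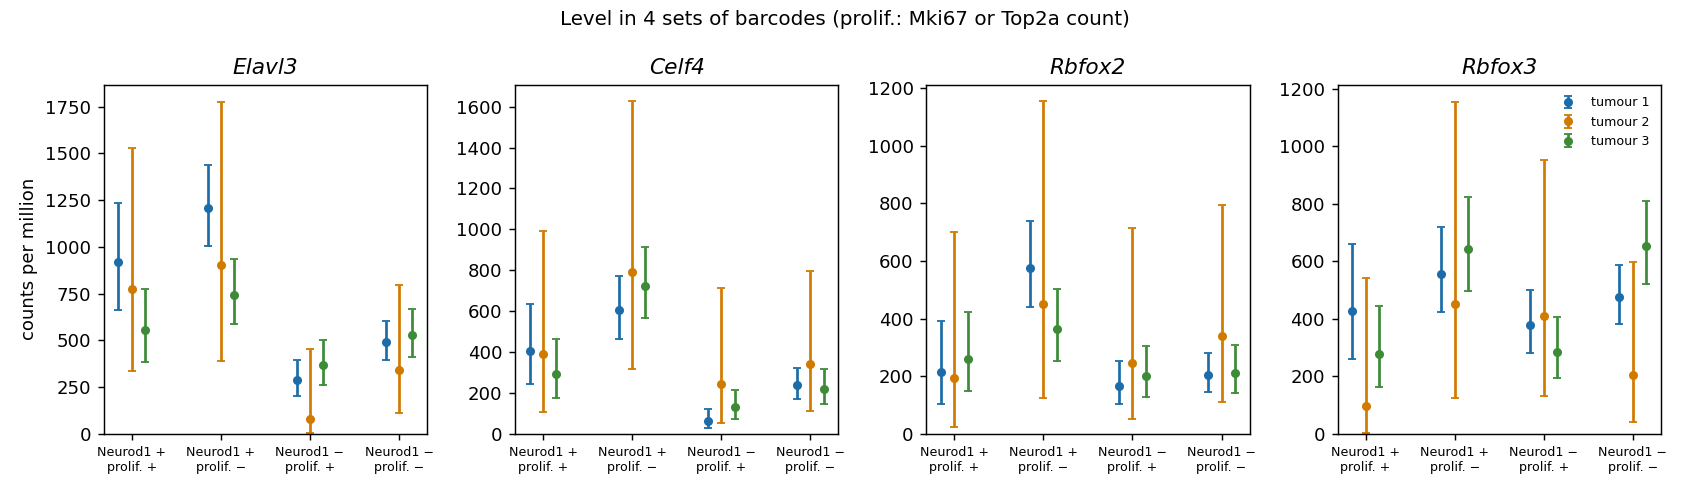
Level of Elavl3, Celf4, Rbfox2 and Rbfox3 in CPM (vertical axis) in barcodes with or without Neurod1 and with or without Mki67 or Top2a (prolif.), 1 point per tumour, with exact Poisson 95% intervals covering counting error only. Celf4 is highest with Neurod1 alone and lowest with proliferation mRNA alone in each tumour. The Rbfox3 intervals with and without Neurod1 overlap inside each proliferation class of each tumour.

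Ptbp1 and Ptbp2 were compared as a share, Ptbp2 over the sum of both. Over all barcodes Ptbp2 made up 52.4%, 70.8% and 61.9% of the pair in tumours 1, 2 and 3. Pooled over deep barcodes it was 69.1% with Neurod1 (exact binomial 95% interval 55.2% to 80.9%) and 60.8% without (51.7% to 69.4%). Tumour 1 had 75.0% with Neurod1 and 57.3% without, while tumour 3 had 63.6% with and 69.2% without, so the tumours did not share a direction. With Mki67 or Top2a it was 59.0% (47.2% to 70.0%), and with neither 66.7% (56.6% to 75.7%). All these intervals overlap, and a paired exact permutation test over 3 tumours cannot reach 0.05.

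Single barcodes held few of these transcripts. Among the 2267 barcodes, Elavl3 was counted in 386 (17.03%), Rbfox3 in 331 (14.6%), Celf4 in 223 (9.84%) and Ptbp1 in 63 (2.78%). Each barcode was then thinned to 200 counts, and values were averaged over 50 draws. Neurod1 detection was read from the thinned counts for thinned shares and from all counts for unthinned ones, so their barcode sets differ. On average 1441 of the 2267 barcodes held none of the 10 genes, 638 held 1, 162 held 2, and 20.4 held 3. Celf4 was seen in 11.8% ± 1.09 of thinned Neurod1-detected barcodes and in 4.74% ± 1.26 of the others (SD, n = 3 tumours each). Without thinning its shares were 17.6%, 13.7% and 18.7% with Neurod1 and 5.34%, 8.25% and 5.37% without. Elavl3 was seen in 15.8% ± 2.51 of thinned barcodes with Neurod1 and in 7.76% ± 2.02 of those without (SD, n = 3 tumours each). Its unthinned shares were 30.3%, 23.5% and 20.1% with Neurod1 and 13.6%, 5.15% and 13.5% without. Rbfox3 was seen in 9.44% ± 1.54 of thinned barcodes with Neurod1 and in 7.43% ± 2.03 of those without (SD, n = 3 tumours each). The share was higher with Neurod1 in 3 of 3 tumours, at 10.9%, 7.80% and 9.66% against 8.54%, 5.09% and 8.66%. Its unthinned shares were 19.4%, 9.80% and 15.2% with Neurod1 and 14.7%, 7.22% and 13.2% without.

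The tests were repeated on thinned counts. In the draw set for the test, Celf4 was higher with Neurod1 (log2 1.32, edgeR adjusted p = 0.0166), and Elavl3 (1.00, adjusted p = 0.0630) and Elavl4 (0.70, adjusted p = 0.917) did not pass. In 10 further draws, added after seeing the data, Celf4 passed in 9, with log2 differences of 1.22 to 1.66, and Elavl3 and Elavl4 passed in 0. The log2 differences over those draws ran from 0.52 to 0.98 for Elavl3 and from -0.0018 to 1.29 for Elavl4. In the proliferation split Celf4 passed in none of the 11 draws, at log2 -0.88 (adjusted p = 0.566) in the first and -1.34 to -0.76 in the other 10. Thinning lowers the counts tested as well as equalising depth. It also changes the sets, which were formed anew from the thinned counts. In the draw set for the test, Neurod1 was detected in 228, 41 and 298 barcodes of tumours 1, 2 and 3, against 330, 51 and 407 without thinning. Barcodes that lost their Neurod1 count moved to the other set.

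Free RNA in droplets was gauged in 2 indirect ways, which gave different levels. Neither isolates free RNA: shallow barcodes may hold cells, and barcodes called another type may be mixed or express these genes themselves. The first set barcodes of at least 200 counts against those of 50 to 99 counts. Over members and tumours this deep-to-shallow ratio ran from 0.402 (Celf1, tumour 2) to 2.55 (Msi1 and Ptbp1, tumour 2). In tumours 1, 2 and 3 it was 1.23, 0.616 and 0.904 for Elavl3, 1.08, 0.479 and 0.891 for Celf4, and 1.58, 0.713 and 1.42 for Rbfox2. Barcodes called another cell type gave the second measure. After thinning, the expected share with a Celf4 count was 1.57% of the 126 such barcodes and 6.39% of the 2141 others, and for Elavl3 it was 3.24% and 10.7%. Without thinning these were 7.14% and 9.995% for Celf4 and 9.52% and 17.5% for Elavl3, at median depths of 573 and 308 counts. The 35 myeloid barcodes held 0 counts of Celf4 and 1 of Elavl3 (40.1 CPM), while the 2141 barcodes of no other type had 337 and 624 CPM. In the 63 barcodes with astrocyte markers Elavl3 had 440 CPM (95% Poisson interval 276 to 666) and Celf4 120 CPM (44.0 to 261). For Rbfox3 the expected thinned shares were 5.48% and 9.07%, and for Celf1, which is widely made, 2.96% and 4.03%.

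Pairs of genes were counted together in the thinned barcodes and set against the number given by their separate frequencies within each tumour, averaged over the 50 draws. Celf4 and Neurod1 met in 70.0 barcodes where 35.9 were expected, a ratio of 1.95 that ranged from 1.70 to 2.18 over draws. Rbfox2 and Neurod1 had a ratio of 1.60 (1.41 to 1.84), Elavl3 and Neurod1 one of 1.47 (1.32 to 1.61), and Elavl4 and Neurod1 one of 1.45 (1.01 to 1.75). For Rbfox3 and Neurod1 it was 1.14 (0.980 to 1.35). Among the 45 pairs of members the highest ratios were of sparse pairs, Celf1 and Ptbp2 at 2.05 (0.740 to 3.53, with 2.13 barcodes expected) and Elavl4 and Ptbp1 at 2.02 (0 to 4.89, with 0.951 expected). Celf4 and Rbfox2 had a ratio of 1.92 (1.31 to 2.54), Elavl3 and Elavl4 one of 1.69 (1.04 to 2.92) and Elavl3 and Celf4 one of 1.61 (1.12 to 2.12). Ptbp1 and Rbfox3 met in 0.78 barcodes on average where 2.50 were expected. These ratios describe barcodes of 3 animals and carry no test, and the ranges cover the thinning only.

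Genes whose levels ran most like a member's were found over the 12 sums, on the scale of log2(CPM + 10) centred within each tumour, among the 1901 genes of at least 100 counts. Celf4 ran most like Mtss1 (Pearson r = 0.945) and Cntn2 (0.926), and without tumour 2, over 8 sums, at 0.955 and 0.944. Elavl4 was closest to Sept4 (0.934, and 0.914 without tumour 2) and Usp22 (0.921 and 0.845). Rbfox2 was closest to Kif1b (0.917 and 0.897) and Podxl2 (0.888 and 0.872), Elavl3 to Gnao1 (0.903 and 0.789) and Ppp3ca (0.899 and 0.808), and Rbfox3 to Prpf6 (0.895 and 0.850). Celf1 was closest to Man1a2 (0.973 and 0.947) and Usp8 (0.967 and 0.846), Msi1 to Sugt1 (0.979 and 0.887) and Rrm1 (0.954 and 0.685), and Ptbp2 to Pqlc1 (0.972 and 0.789) and Ptpn12 (0.946 and 0.542). Elavl2 came closest to RP23-32A8.1 (0.978 and 0.712) and Cldn25 (0.976 and 0.456), likenesses that rested mostly on the shallow sums of tumour 2. Of 36 pairs of members, Elavl2 and Celf1 had the highest r, 0.931, which was 0.592 without tumour 2. Elavl3 and Elavl4 followed (0.825, and 0.908 without tumour 2), then Celf4 and Rbfox2 (0.763 and 0.795) and Elavl3 and Celf4 (0.745 and 0.951). All sums share their tumours' libraries, so these r describe the 12 sums only.

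A wider list of 37 other RNA-binding regulators was read the same way, and 28 of them had enough counts to be tested. In edgeR none passed in the Neurod1 split, with 7 at an unadjusted p under 0.05, and none in the proliferation split, with 3. Of all tested genes 6.62% and 7.95% reached that unadjusted level in the 2 splits. The list's median log2 difference was 0.31 with Neurod1 and -0.22 with proliferation mRNA, beside -0.03 and -0.00 over all tested genes. In the Neurod1 split Srrm4, an activator of neuronal microexons, came closest (log2 0.99, edgeR adjusted p = 0.0621), and Celf5 stood at 1.41 (adjusted p = 0.221). Both were singled out after their values were seen.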

How the data were processed

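Whole-number counts per gene and barcode were used as deposited, and per the labels' protocols they come from Drop-seq V3.1 libraries. Per the submitters' processing notes STAR, Cell Ranger and GRCh38 were named, while 94.0% of the symbols, holding 96.4% of the counts, matched mouse gene names. Gene-level strand use is not given in the sources used here. Barcodes had at least 50 genes as deposited.

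Barcodes of at least 200 counts were kept and their counts summed per tumour and set. Both sets of a split come from the same animals, so the tumour was a block. Neurod1, Mki67 and Top2a, which make the sets, were left out of library sizes and of the fit. Sums were compared with edgeR 4.0.16 in R 4.3.3 (TMM, robust quasi-likelihood fit, genes of at least 15 counts in total, Benjamini-Hochberg threshold 0.05), and the procedure was tested on simulated data, where its sensitivity was low. DESeq2 1.42.0 and limma 3.58.1 were alternatives. An SE is the log2 difference over the square root of F. With the tumour as a block, the p-values reflect how the differences within 3 tumours varied, with that variation estimated partly from all genes. A low p-value therefore does not show by itself that the 3 tumours agree.

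Doublets were called with Scrublet in scanpy 1.11.5 at an expected 6%, giving 7, 4 and 8 calls, and were left out only in an alternative. A barcode was called another cell type with at least 3 counts over at least 2 of its marker genes. Intervals on levels and shares (95%) and the limit for a count of 0 (3 counts) cover counting error only. Thinning drew 200 counts per barcode with a fixed seed; 10 further draws for the tests and 50 for shares and pairs were added after seeing that single draws varied. All 10 members are named in each comparison, values are given for those genes of the wider list that passed, and for the granule neuron and mitosis lists up to 3 with the lowest p. Named likenesses are the 2 highest r per member of at least 100 counts. Some genes that these rules name are not reported here. Members and lists were chosen with earlier results of these data known.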

Additional observations from a re-analysis of the deposited data

How the results depend on the processing

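In the Neurod1 split 50 genes and 3 members passed. No filter on low counts gave 32 genes, edgeR's own filter 83, barcodes of at least 100 counts 19 genes and 1 member, thinning 10 genes and 1 member, and DESeq2 and limma-voom 0 genes and 0 members each (87 and 564 genes at an unadjusted p under 0.05). Members numbered 4 with relative log expression factors, total counts or edgeR's own filter, and 2 with no filter, barcodes of at least 300 counts, at most 10% mitochondrial counts, no barcodes of another type, or 4 additive sets. Leaving out 1 tumour at a time gave 0 to 201 genes and 0 to 4 members. In the proliferation split 141 genes and 1 member passed. DESeq2 gave 32 genes, limma-voom 67, thinning 36 and Mki67 alone 82, with 0 members in DESeq2, limma-voom and thinned counts. Members numbered 2 with relative log expression factors, total counts, barcodes of at least 300 counts, at most 10% mitochondrial counts, no barcodes of another type, or 4 additive sets, and 3 with edgeR's own filter or without doublets. Leaving out 1 tumour gave 9 to 258 genes and 0 to 3 members. In the interaction 0 to 1 genes passed with 1 tumour left out.

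Without the tumour as replicate block 1 gene and 0 members passed in the Neurod1 split, 49 genes and 0 members in the proliferation split and 0 genes in the interaction. The cause of these changes was not tested. Celf4 passed in 12 of 17 alternatives of the Neurod1 split (log2 0.74 to 2.00) and in 13 of 19 of the proliferation split (-1.32 to -0.88), Elavl3 in 10 of 17 (0.65 to 1.54) and Elavl4 in 5 of 17 (0.70 to 1.49), and none of these changed sign.

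Over these alternatives, values that changed sign were of members that had not passed. In the 10 further thinned draws, which are not counted among them, Elavl4 ran from log2 -0.0018 to 1.29 with Neurod1. With Neurod1, Celf1 was at 0.0874 in barcodes of at least 300 counts and 0.0118 at low mitochondrial share, and Elavl2 at -0.36 after thinning. With 1 tumour left out Rbfox3 lay between -0.0572 and 0.15 and Msi1 between -0.32 and 0.14. In the proliferation split Celf1 was at 0.0244 in DESeq2, 0.0225 in limma-voom, 0.0103 at low mitochondrial share, 0.0057 without other cell types and 0.0909 with Mki67 alone. Elavl2 was at -0.23 at 100 counts, -0.16 at low mitochondrial share and -0.21 with Top2a alone. Ptbp2 was at -0.15 at 300 counts, -0.0673 without doublets and -0.67 with Top2a alone, Ptbp1 at -0.0698 after thinning and Msi1 at -0.0867 with Mki67 alone. With 1 tumour left out Celf1 lay between -0.0522 and 0.11, Elavl2 between -0.12 and 0.61 and Ptbp2 between -0.0222 and 0.79. The interaction with 1 tumour left out spanned 0 for Elavl2 (-0.88 to 0.0809), Celf4 (-0.48 to 0.80), Ptbp1 (-0.41 to 1.10) and Ptbp2 (-0.85 to 1.81). Over tumour totals, Celf1 averaged 176 ± 97.3 CPM in barcodes of at least 200 counts and 211 ± 17.7 CPM in all barcodes (SD, n = 3). Depth limits Ptbp1, Ptbp2, Msi1 and Elavl2 most, each with under 125 counts in deep barcodes.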
